A study of Saccharomyces cerevisiae with 12 samples.

Results

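The DNA replication machinery of budding yeast (Saccharomyces cerevisiae) was followed through 45 genes that encode the origin recognition complex, the loading factor CDC6, the MCM helicase, the factors that activate it, GINS, DNA polymerases alpha, epsilon and delta, the sliding clamp and its loaders, replication protein A (RPA), DNA ligase and the adaptor CTF4. A gene on the list belonged to the set if its symbol was the only one given to a probe set. This rule used no measured value, but the list was drawn up with earlier results of these data known. The 45 genes were among 5656 that had such a probe set, and 44 of them were among the 5369 genes bright enough to be tested. SLD2, a firing factor, was left out of the tests because its intensity lay between -16.5 and 37.4, against a floor of 34.5 below which values were not ranked. The 45 genes had 53 probe sets, 9 of them for POL2, and the brightest probe set stood for its gene.

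Transcript levels had been measured on 12 one-colour Affymetrix arrays, with 2 arrays in each of 6 groups: TFIIH mutant C403A with MMS and untreated, TFIIH mutant C406A with MMS and untreated, and wild type with MMS and untreated. MMS (methyl methanesulfonate), which methylates DNA bases, was given at 0.03% for 30 minutes. TFIIH melts promoter DNA so that RNA polymerase II can start, and unwinds DNA around lesions when nucleotides are excised in repair. The mutated subunit is not named in the labels and, from knowledge of the study, is Ssl1, with both substitutions in its RING finger.

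Replication starts where the origin recognition complex and CDC6 load the MCM ring around DNA in G1. In S phase kinases and firing factors bring CDC45 and GINS to the ring, and this complex unwinds DNA while polymerase alpha-primase starts strands, polymerases epsilon and delta extend them, the clamp PCNA tethers the polymerases, RPA coats single strands and ligase seals the fragments of the lagging strand. In yeast many of these genes are transcribed most in late G1 under the factor MBF, whereas CDC6 and several MCM genes peak between mitosis and G1. Methylated bases slow replication forks, and exposed single strands coated with RPA activate the Mec1 and Rad53 checkpoint kinases.

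Values are intensities after quantile normalization, and a group's arrays are numbered in the order listed. Changes are log2 differences between group means, and each error after ± is the standard error of that contrast in the limma fit of all 12 arrays. A gene passed where its p, adjusted by Benjamini-Hochberg over all 5369 genes, was under 0.05, and p-values below are adjusted unless called unadjusted. The share of all genes with an unadjusted p under 0.05 was not counted, so counts at that level have no background here. Separate cultures are not stated in the labels for the arrays of a group, so the spread behind the p-values may be technical. By the scan times in the file headers, arrays had been scanned strain by strain, untreated before MMS, so scan order and group cannot be told apart. In a mixed culture, a change per cell and a change in the share of cells at one cycle stage cannot be told apart either.

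Array medians as deposited ran from 184 to 310, replicate arrays correlated across genes with r between 0.985 and 0.993, and precision is limited by having 2 arrays a group. SSL1 itself, the gene of the mutated subunit, was higher in untreated C403A and C406A than in untreated wild type by 1.52 and 1.06 on the log2 scale, which sets the mutants apart from wild type on every array. Ribosomal RNA control signal was highest on untreated array 2 of C403A and untreated array 2 of wild type, at 1775 and 651, against 53.7 to 343 on the other 10 arrays.

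The genes for RPA, the clamp PCNA, CDC45 and the clamp loader subunit RFC4 rose with MMS in all 3 strains, and MCM7 fell in all 3. The 6 that rose were RFA1, RFA2, RFA3, POL30, CDC45 and RFC4. In each strain RFA1 or CDC45 had the largest rise, at 1.93-fold for RFA1 in C403A, 1.82-fold for CDC45 in C406A and 2.23-fold for RFA1 in wild type. Genes of origin recognition did not pass in any strain's response. For 6 genes that is near the background, as 15.6%, 24% and 33% of all genes passed in C403A, C406A and wild type. A further 3 genes rose in 2 strains and 6 in 1 strain, and 29 of the 44 rose in none. The matching counts over all genes were not made, so whether 6 of 44 in all 3 strains is unusual cannot be read here.

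In C403A 10 of 44 tested genes passed (22.7%), beside 15.6% of all genes. Of these 9 rose with MMS and 1 fell (20.5% and 2.27%), where over all genes 8.42% rose and 7.13% fell. In C406A 9 passed (20.5%, beside 24% of all genes), with 8 higher and 1 lower (18.2% and 2.27%, beside 12.7% and 11.2%). In wild type 15 passed (34.1%, beside 33% of all genes), with 13 higher and 2 lower (29.5% and 4.55%, beside 19.1% and 13.9%). The share of the 44 genes that rose was above that of all genes in each strain, least so in C406A, and the share that fell was below it. The share passing either way was below that of all genes in C406A and near it in wild type. These differences in share were not tested, and the list was drawn up with earlier results of these data known.

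The median change of the 44 genes was 0.14 in C403A, 0.08 in C406A and 0.19 in wild type, and the median of all genes was -0.00025, 0 and 0.02 in the same order. Changes were positive for 30, 25 and 31 of the 44 genes in C403A, C406A and wild type. Over the mean of the strains' responses 22 genes passed (50%, beside 47.5% of all genes), with 18 higher and 4 lower (40.9% and 9.09%, beside 25.3% and 22.2%). The changes ranged widely, between -0.55 and 0.95 in C403A, -0.67 and 0.86 in C406A, and -0.56 and 1.16 in wild type.

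These directions depend in part on how arrays are scaled. With the values as deposited, the median of all genes moved to 0.28, 0.43 and 0.24 in the MMS responses of C403A, C406A and wild type, and with arrays scaled to the hybridization controls to -0.12, 0.25 and -0.09. Of all genes that passed, 54.1%, 53.1% and 58% were higher under the main scaling, 97.8%, 98.6% and 92.1% as deposited, and 35.8%, 93.6% and 38.7% with hybridization controls. In wild type 31 of the 44 genes lay above the median of all genes under each of the 4 scalings. Across all comparisons 67 changes of the 44 genes passed. Relative to the median of all genes, all 67 kept their sign under each of the other 3 scalings. As deposited 40 still passed, and with hybridization controls 31. Those 3 scalings differ from each other only by a factor per array, which shifts all genes above the floor nearly alike. Their agreement relative to that median, for the 31 genes and the 67 signs, was therefore nearly fixed in advance and is no separate support.

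**Figure D1:**
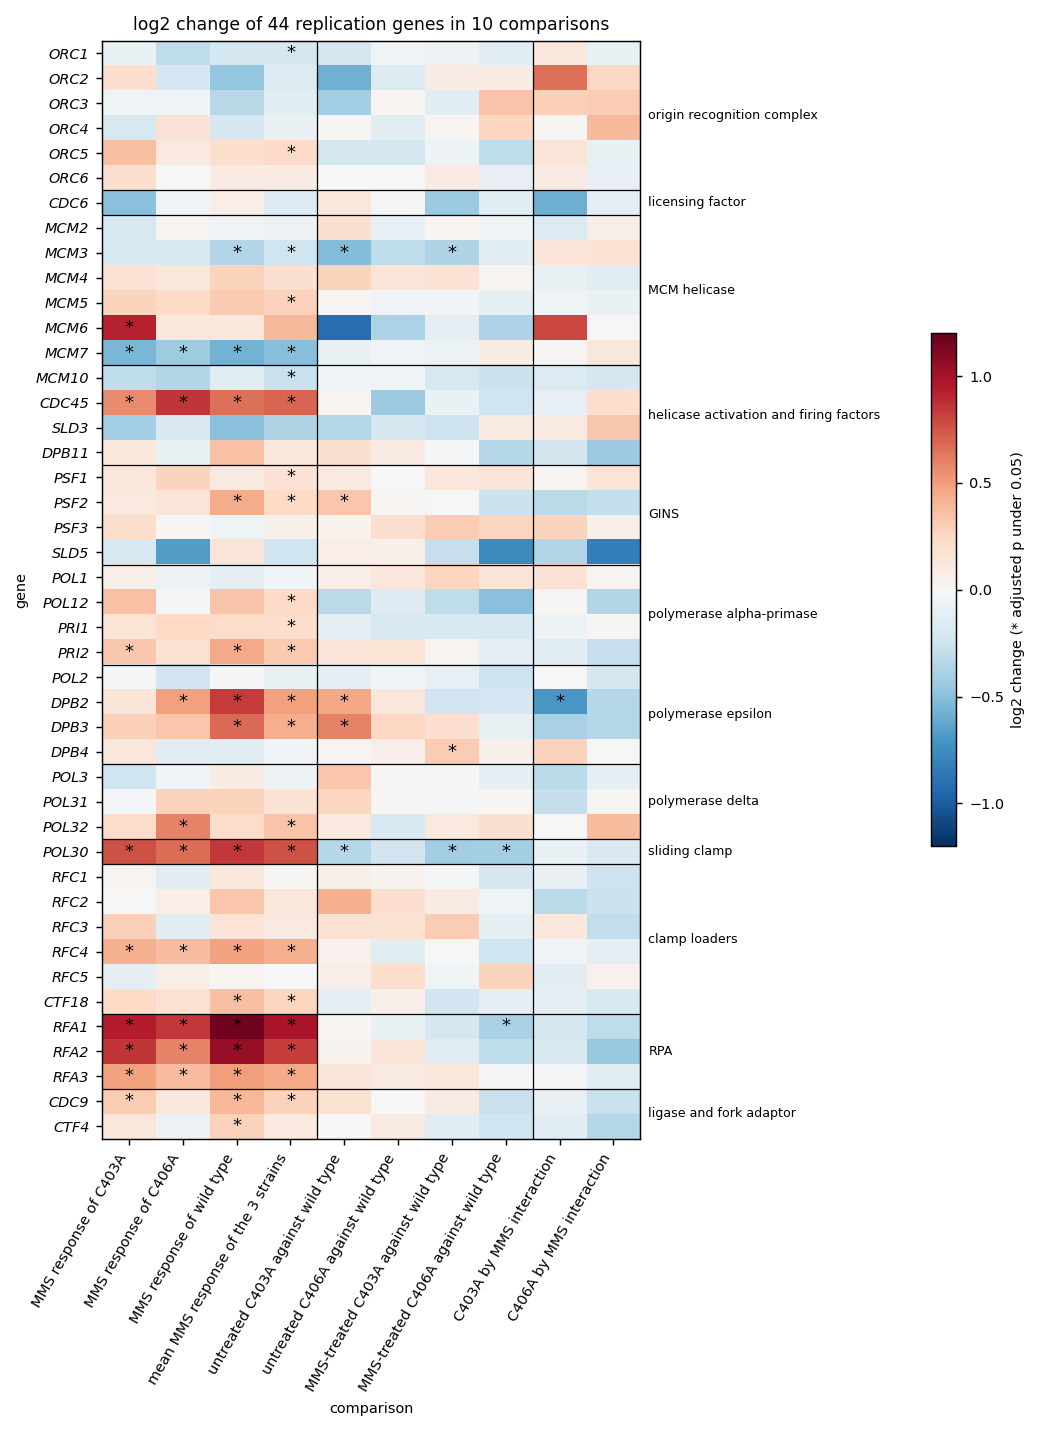
Log2 changes of the 44 tested replication genes, grouped by complex, in the MMS responses of C403A, C406A and wild type and their mean, in each mutant against wild type (untreated, then with MMS), and in the differences between MMS responses. Rows are genes, columns are comparisons, colour gives the log2 change (red higher, blue lower) and an asterisk marks an adjusted p under 0.05. RPA genes, POL30, CDC45 and RFC4 carry an asterisk in the MMS column of every strain. Origin recognition genes carry none in those columns, which for 6 genes is near the background.

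**Figure D2:**
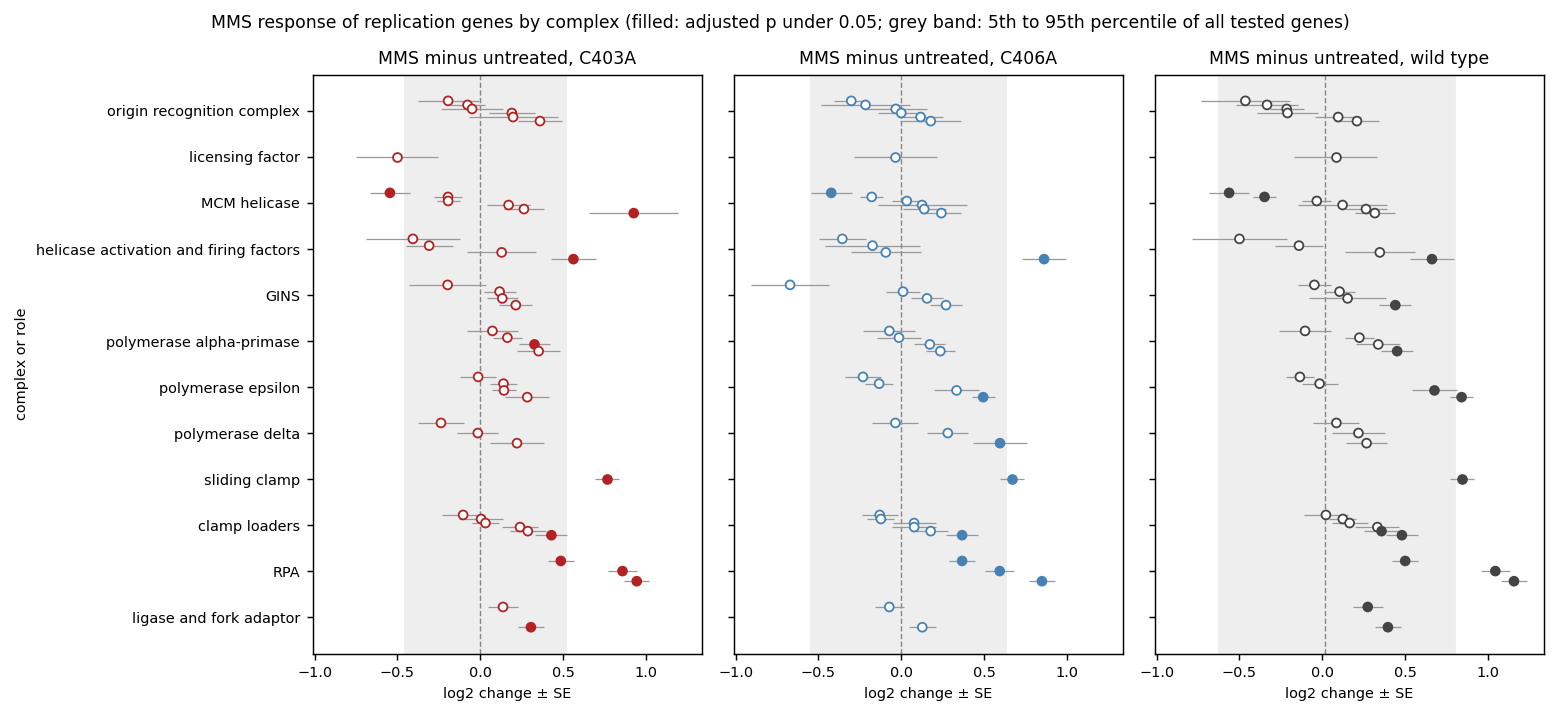
MMS response (log2 change) of each tested gene in C403A, C406A and wild type, with one row of points per complex, bars for the standard error and filled points for adjusted p under 0.05. The dashed line is the median of all genes and the grey band their 5th to 95th percentile. The 3 RPA genes lie between 0.37 and 1.16, and the 6 origin recognition genes between -0.46 and 0.36.

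ORC1 to ORC5 and ORC6, the subunits of the complex that marks origins, gave 0 of 6 passing results in each strain by limma, with 1 gene at an unadjusted p under 0.05 in C403A, 1 in C406A and 0 in wild type. Among all genes 15.6%, 24% and 33% passed in those responses, so for 6 genes a count of 0 is near the background. Their changes lay between -0.19 and 0.36 in C403A, -0.30 and 0.18 in C406A, and -0.46 and 0.21 in wild type. ORC1, which binds ATP, read 296 and 287 with MMS against 325 and 291 untreated in C403A, 299 and 257 against 336 and 348 in C406A, and 322 and 290 against 359 and 350 in wild type. MMS arrays lay below untreated arrays for ORC1 in C406A and wild type and overlapped in C403A, and the mean response of the strains passed at -0.20 (adjusted p = 0.0215). With the values as deposited that mean was 0.16, and it missed the threshold at -0.16 to -0.19 without C403A MMS array 2, C403A untreated array 1, C406A MMS array 2, C406A untreated array 2 or wild-type MMS array 2. ORC5 rose in the mean response by 0.23 (adjusted p = 0.0358), a call lost at 0.16 to 0.23 without any 1 of 7 arrays (either C403A MMS array, C403A untreated array 2, C406A MMS array 1, C406A untreated array 2, wild-type MMS array 1 or wild-type untreated array 2). ORC6 lay between 8.72 and 40.6, around the floor, so its changes cannot be read.

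CDC6, the ATPase that loads the ring together with the origin recognition complex, changed by -0.50 ± 0.25 in C403A, -0.04 ± 0.25 in C406A and 0.08 ± 0.25 in wild type, none of which passed (adjusted p = 0.215, 0.938 and 0.837).

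The MCM genes did not move as a block, although their products form a single ring. MCM7 read 273 and 296 with MMS against 459 and 375 untreated in C403A, 348 and 291 against 441 and 413 in C406A, and 296 and 302 against 462 and 422 in wild type. Both MMS arrays lay below both untreated arrays in every strain. MCM7 fell by 0.55 ± 0.12 in C403A, 0.42 ± 0.12 in C406A and 0.56 ± 0.12 in wild type (adjusted p = 0.0164, 0.0331 and 0.0066), but with the values as deposited its change in C406A was 0.056 and none of these falls passed, and with hybridization controls the falls in C403A and C406A did not pass. In C403A the fall was lost without MMS array 1 (-0.49 at adjusted p = 0.107) or untreated array 1 (-0.40 at adjusted p = 0.0943). In C406A it was lost without MMS array 2 (-0.29 at adjusted p = 0.199), untreated array 1 (-0.37 at adjusted p = 0.155) or untreated array 2 (-0.47 at adjusted p = 0.0899).

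MCM3 read 419 and 448 with MMS against 490 and 501 untreated in C403A, 521 and 496 against 566 and 583 in C406A, and 563 and 552 against 711 and 709 in wild type. MMS arrays were the lower ones in each strain, and wild type was above both mutants in either condition. The fall of 0.35 ± 0.07 passed in wild type (adjusted p = 0.00417), while the changes of -0.19 in C403A and -0.18 in C406A did not (adjusted p = 0.0917 and 0.0922). As deposited, the wild-type change was -0.06 and the mean over the strains 0.12.

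MCM6 read 150 and 189 with MMS against 70.2 and 111 untreated in C403A, 138 and 141 against 108 and 152 in C406A, and 225 and 146 against 172 and 160 in wild type. The groups overlapped in C406A and wild type, and untreated array 1 of C403A was the lowest of the 12. Its rise of 0.93 ± 0.27 in C403A (adjusted p = 0.0451) was 0.59 (adjusted p = 0.237) without that array. The call was also lost at 0.75 to 1.09 without either C403A MMS array, either C406A MMS array or either wild-type untreated array. With the floor at the 40th percentile the change was 0.18 (adjusted p = 0.521). MCM2, MCM4 and MCM5 passed in no single strain, and MCM5 rose in the mean response by 0.27 (adjusted p = 0.0091).

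CDC45, the helicase subunit whose loading marks origin firing, read 212 and 237 with MMS against 145 and 159 untreated in C403A, 213 and 188 against 122 and 98.9 in C406A, and 244 and 229 against 141 and 158 in wild type. Every MMS array lay above every untreated array. CDC45 rose by 0.56 ± 0.14 in C403A, 0.86 ± 0.14 in C406A and 0.66 ± 0.14 in wild type (adjusted p = 0.0215, 0.00186 and 0.00469). In C403A the call was lost without MMS array 1 (0.64 at adjusted p = 0.0631), MMS array 2 (0.48 at adjusted p = 0.123) or untreated array 1 (0.50 at adjusted p = 0.103).

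Of the other activation factors, SLD3, which recruits CDC45, and DPB11, the scaffold that joins phosphorylated firing factors, passed in no response. SLD3 changed by -0.41, -0.17 and -0.50 in C403A, C406A and wild type, with a standard error of 0.28 for each. MCM10, which binds the ring at firing, read between 25.1 and 48.5, near the floor, and fell in the mean response by 0.27 (adjusted p = 0.0229), with both MMS arrays of C406A at the floor. That call was lost at -0.24 to -0.25 without C403A MMS array 1, C406A untreated array 2, wild-type MMS array 2 or wild-type untreated array 1.

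The GINS genes gave 1 passing result among the MMS responses of single strains. In the mean response PSF1 rose by 0.17 and PSF2 by 0.24 (adjusted p = 0.0282 and 0.00621), and neither passed with hybridization controls. PSF2 read 454 and 420 with MMS against 416 and 390 untreated in C403A, 360 and 367 against 332 and 321 in C406A, and 434 and 435 against 349 and 294 in wild type. The MMS arrays were higher in each strain, but the gap was wide only in wild type, where PSF2 rose by 0.44 ± 0.10 (adjusted p = 0.00681). Its changes were 0.12 in C403A and 0.16 in C406A (adjusted p = 0.477 and 0.275). By limma 0 of the 4 genes passed in C403A and 0 in C406A, with 0 and 2 at an unadjusted p under 0.05. SLD5 read 229 and 217 with MMS against 297 and 220 untreated in C403A, 207 and 122 against 259 and 247 in C406A, and 270 and 270 against 212 and 278 in wild type. Its change in C406A was -0.67 ± 0.23 (adjusted p = 0.0649), with MMS array 2 far below the other MMS array.

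**Figure D3:**
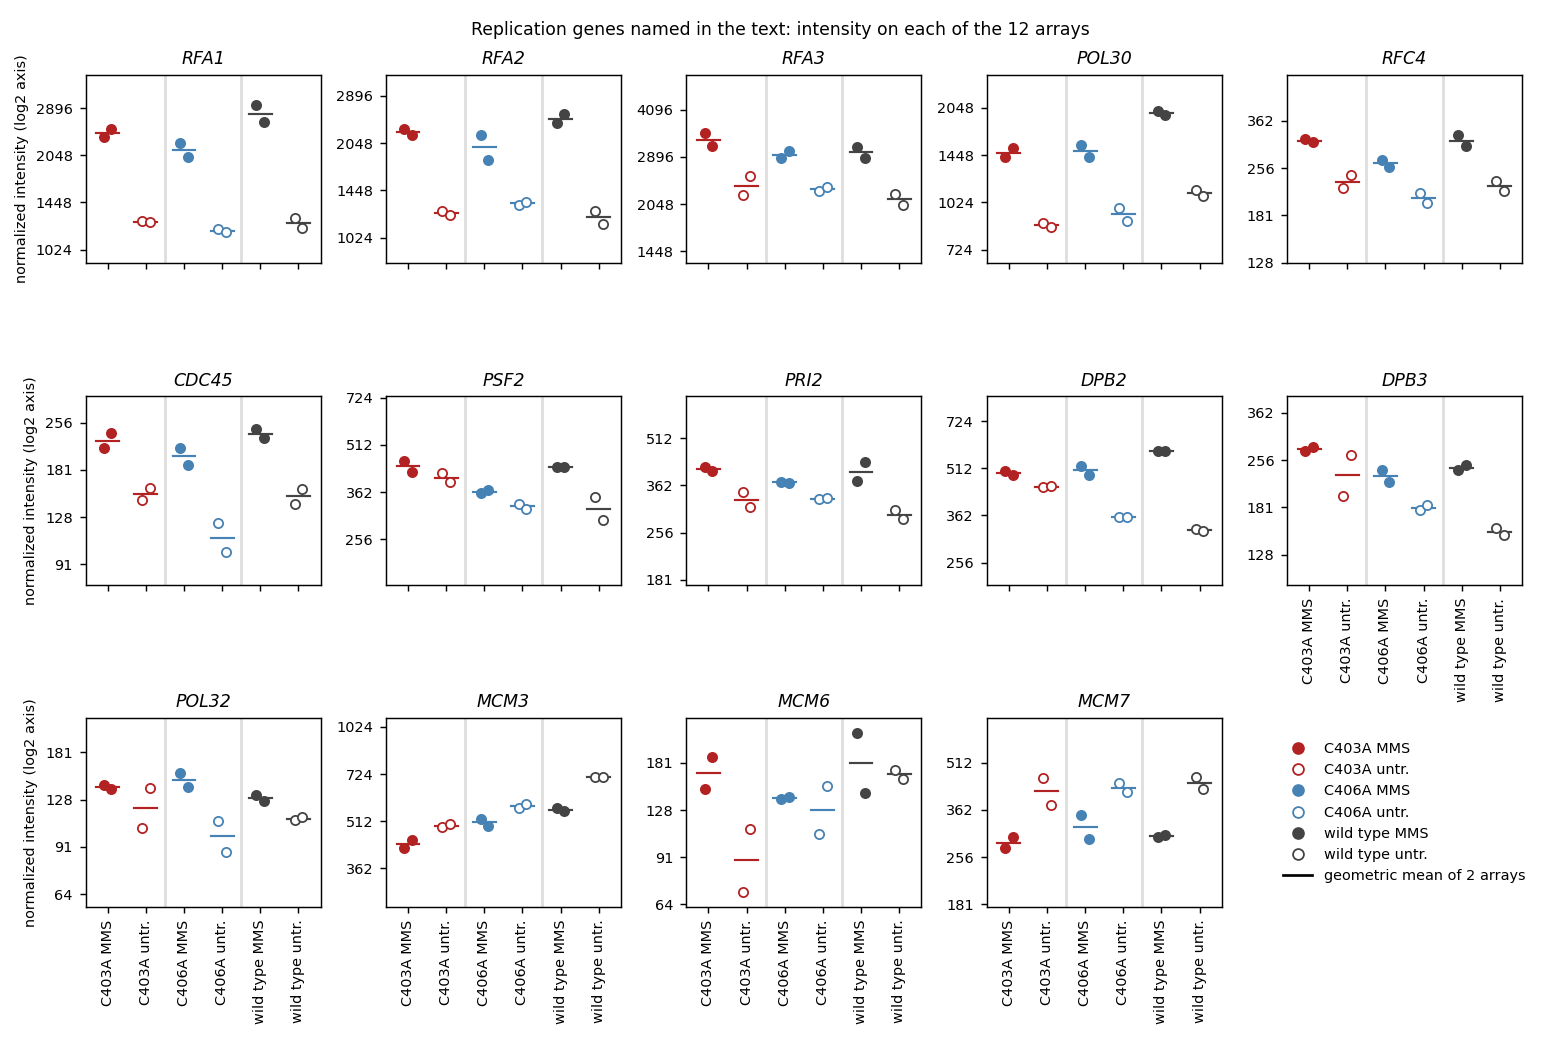
Normalized intensity on each of the 12 arrays (log scale) for the replication genes named with their values, with one panel per gene. Points are arrays, filled with MMS and open untreated, in the order C403A, C406A and wild type, and lines are geometric means of the 2 arrays. In the RFA1, RFA2, RFA3, POL30, RFC4 and CDC45 panels every MMS array lies above every untreated array of its strain, and in the MCM7 panel every MMS array lies below.

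The polymerases differed by subunit. PRI2, the large primase subunit, read 415 and 404 with MMS against 344 and 309 untreated in C403A, 372 and 369 against 327 and 330 in C406A, and 373 and 429 against 302 and 283 in wild type. MMS arrays were above untreated arrays in each strain. PRI2 rose by 0.33 ± 0.09 in C403A and 0.45 ± 0.09 in wild type (adjusted p = 0.0445 and 0.00543), and its change in C406A was 0.17 (adjusted p = 0.217). The C403A call was lost without any 1 of 10 arrays, that is all but the wild-type MMS arrays, at 0.25 to 0.40 and adjusted p of up to 0.182. POL1, the catalytic subunit, POL12, its regulatory subunit, and PRI1, the primase catalytic subunit, passed in no single strain. In the mean response PRI1 rose by 0.21 and POL12 by 0.23 (adjusted p = 0.00725 and 0.034). With hybridization controls neither of these mean rises passed (adjusted p = 0.12 and 0.0895).

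DPB2, the essential second subunit of polymerase epsilon, read 501 and 488 with MMS against 445 and 450 untreated in C403A, 521 and 489 against 358 and 358 in C406A, and 581 and 583 against 327 and 323 in wild type. The arrays of a group were close together, wild type was lowest of the strains untreated and highest with MMS, and C403A showed the smallest gap. DPB2 rose 1.41-fold in C406A and 1.79-fold in wild type, by 0.49 ± 0.07 and 0.84 ± 0.07 on the log2 scale (adjusted p = 0.00112 and 4.39e-05). The change in C403A was 0.14 ± 0.07 (adjusted p = 0.207), with a 95% interval of -0.01 to 0.30.

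DPB3, a small histone-fold subunit of the same polymerase, read 274 and 283 with MMS against 197 and 265 untreated in C403A, 238 and 218 against 177 and 184 in C406A, and 238 and 247 against 155 and 148 in wild type. MMS arrays were the higher ones in every strain. DPB3 rose by 0.68 ± 0.13 in wild type (adjusted p = 0.00407), beside changes of 0.28 in C403A and 0.33 in C406A that did not pass (adjusted p = 0.191 and 0.101). POL2, the catalytic subunit, read between 696 and 998 on all arrays with no passing response. Among its other 8 probe sets 3 were above the floor on all 12 arrays, with wild-type changes of -0.10, 0.21 and 0.37, so the probe sets of this gene did not give 1 value.

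DPB4, the partner of DPB3, read 495 and 523 with MMS against 442 and 482 untreated in C403A, 446 and 413 against 460 and 481 in C406A, and 416 and 405.9 against 436 and 467 in wild type. MMS arrays were above untreated ones in C403A and below them in C406A and wild type. None of these responses passed (adjusted p = 0.301, 0.276 and 0.242).

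POL32, the polymerase delta subunit used in bypass and break-induced synthesis, read 143 and 138 with MMS against 104 and 140 untreated in C403A, 155 and 141 against 110 and 87.3 in C406A, and 132 and 127 against 110 and 113 in wild type. The groups overlapped in C403A. POL32 rose by 0.60 ± 0.16 in C406A (adjusted p = 0.0255), beside 0.22 in C403A and 0.22 in wild type (adjusted p = 0.408 and 0.332). The call was lost without MMS array 1 (0.53 at adjusted p = 0.111), MMS array 2 (0.67 at adjusted p = 0.0628) or untreated array 2 (0.44 at adjusted p = 0.167) of C406A. POL3, which holds the polymerase delta active site, and POL31 passed in no response.

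POL30, the single gene of the PCNA clamp, read 1426 and 1525 with MMS against 882 and 854 untreated in C403A, 1557 and 1426 against 984 and 893 in C406A, and 2005 and 1940 against 1120 and 1074 in wild type. Every MMS array was above every untreated array, and wild type was the highest strain in both conditions. POL30 rose 1.70-fold in C403A, 1.59-fold in C406A and 1.80-fold in wild type (0.76, 0.67 and 0.85 on the log2 scale, each ± 0.07, adjusted p = 0.000249, 0.000299 and 4.68e-05).

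RFC4, a subunit shared by all the clamp loaders, read 316 and 309 with MMS against 221 and 244 untreated in C403A, 273 and 259 against 213 and 199 in C406A, and 326 and 301 against 232 and 217 in wild type. MMS arrays were above untreated arrays in each strain. RFC4 rose by 0.43 ± 0.10 in C403A, 0.37 ± 0.10 in C406A and 0.48 ± 0.10 in wild type (adjusted p = 0.0165, 0.0226 and 0.00439). The call was lost in C403A without MMS array 1 (0.41 at adjusted p = 0.0947), MMS array 2 (0.44 at adjusted p = 0.0655) or untreated array 1 (0.36 at adjusted p = 0.0851). In C406A it was lost without any 1 of the 4 C406A arrays, at 0.32 to 0.42 and adjusted p between 0.0584 and 0.131.

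The other loader genes moved less. CTF18, which heads the loader used in cohesion, rose in wild type by 0.36 (adjusted p = 0.028), with 0.24 in C403A and 0.18 in C406A (adjusted p = 0.168 and 0.257). That call was lost without MMS array 1 (0.24 at adjusted p = 0.19), untreated array 1 (0.35 at adjusted p = 0.0931) or untreated array 2 (0.37 at adjusted p = 0.0831) of wild type. RFC1, the large subunit of the main loader, RFC2, RFC3 and RFC5 passed in no response, and their changes lay between -0.13 and 0.33 across the strains.

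All 3 RPA genes rose in every strain. RFA1, the large subunit, read 2345 and 2492 with MMS against 1260 and 1251 untreated in C403A, 2233 and 2016 against 1193 and 1162 in C406A, and 2952 and 2620 against 1295 and 1200 in wild type. RFA2, the subunit phosphorylated by checkpoint kinases, read 2265 and 2175 with MMS against 1241 and 1206 untreated in C403A, 2181 and 1810 against 1301 and 1330 in C406A, and 2368 and 2534 against 1243 and 1134 in wild type. RFA3, the smallest subunit, read 3448 and 3134 with MMS against 2195 and 2508 untreated in C403A, 2870 and 3019 against 2251 and 2313 in C406A, and 3115 and 2881 against 2201 and 2037 in wild type. For each of the 3 genes all 6 MMS arrays lay above all 6 untreated arrays.

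RFA1 rose by 0.95 in C403A, 0.85 in C406A and 1.16 in wild type (each ± 0.08, adjusted p = 0.00012, 0.000139 and 1.45e-05). RFA2 rose by 0.86, 0.59 and 1.04 in the same strains (each ± 0.09, adjusted p = 0.000336, 0.00135 and 4.39e-05). Both were highest with MMS in wild type. RFA3 rose by 0.49, 0.37 and 0.50 (each ± 0.08, adjusted p = 0.00392, 0.00973 and 0.00127), and its C406A call was lost without MMS array 2 (0.33 at adjusted p = 0.0601) or untreated array 1 (0.35 at adjusted p = 0.0622) of C406A. RFA1, RFA2 and POL30 passed in every strain under all 22 other settings tried, DPB2 did so in C406A and wild type, and CDC45 in C406A. With arrays scaled to hybridization controls 9 of the 13 rises in wild type did not pass, those of CDC45, PSF2, PRI2, DPB3, RFC4, CTF18, RFA3, CDC9 and CTF4, at changes of 0.21 to 0.59.

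CDC9, the ligase that seals lagging-strand fragments, read 510 and 499 with MMS against 421 and 396 untreated in C403A, 392 and 394 against 374 and 345 in C406A, and 485 and 459 against 368 and 349 in wild type. MMS arrays were the higher ones throughout. CDC9 rose by 0.31 ± 0.08 in C403A and 0.40 ± 0.08 in wild type (adjusted p = 0.0303 and 0.00451), with 0.13 in C406A (adjusted p = 0.282). The C403A call was lost without MMS array 1 (0.29 at adjusted p = 0.145), MMS array 2 (0.32 at adjusted p = 0.0976), untreated array 1 (0.35 at adjusted p = 0.0548) or untreated array 2 (0.26 at adjusted p = 0.106). CTF4, which ties the helicase to polymerase alpha, rose in wild type by 0.27 (adjusted p = 0.0398), a call lost without any 1 of 8 arrays (the 4 of wild type, the C403A MMS arrays and the C406A untreated arrays, at 0.24 to 0.31 and adjusted p of up to 0.162), with 0.14 in C403A and -0.07 in C406A (adjusted p = 0.347 and 0.599).

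The number of C403A calls itself rested on single arrays. In place of 10, leaving out MMS array 1 gave 4, MMS array 2 gave 6 and untreated array 1 gave 4. In C406A it was 5 without C406A MMS array 2, in place of 9. In wild type it stayed between 13 and 17.

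The untreated mutants were compared with untreated wild type to ask whether the replication genes already differed without damage. DPB2, DPB3 and PSF2 were higher and MCM3 and POL30 lower in C403A. In C403A 5 of 44 genes passed (11.4%, beside 14.1% of all genes), with 3 higher and 2 lower (6.82% and 4.55%, beside 9.16% and 4.97%), so the share was no larger than the background. DPB2 was higher by 0.46 (adjusted p = 0.00335), DPB3 by 0.59 (adjusted p = 0.0189) and PSF2 by 0.33 (adjusted p = 0.0494), and the arrays of the strains did not overlap for any of them. MCM3 was lower by 0.52 and POL30 by 0.34, as changes of -0.52 and -0.34 (adjusted p = 0.00198 and 0.0152).

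Only MCM3 passed here when the 2 arrays of highest ribosomal RNA signal, both of them untreated arrays of this comparison, were left out. DPB2 then stood at 0.45 (adjusted p = 0.0534), DPB3 at 0.35 (adjusted p = 0.185), PSF2 at 0.26 (adjusted p = 0.229) and POL30 at -0.35 (adjusted p = 0.124). The part of that signal in the result was not tested. DPB3 was also lost without wild-type untreated array 1 (0.63 at adjusted p = 0.0569), wild-type untreated array 2 (0.56 at adjusted p = 0.0909) or C403A untreated array 2 (0.38 at adjusted p = 0.0823), and POL30 without wild-type untreated array 1 (-0.31 at adjusted p = 0.0763) or C403A untreated array 2 (-0.31 at adjusted p = 0.0677). PSF2 was lost without any 1 of the arrays other than wild-type untreated array 1, at 0.21 to 0.38, and was 0.21 (adjusted p = 0.236) without wild-type untreated array 2. None of the 5 passed as deposited, and with hybridization controls the median of all genes was -0.23, PSF2 was 0.07 and DPB2 was 0.21.

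In untreated C406A 0 of 44 genes passed by limma, beside 2.7% of all genes (1.83% higher and 0.875% lower), and 0 were higher and 3 lower at an unadjusted p under 0.05. The 3 were MCM3 at -0.30 (adjusted p = 0.0524), CDC45 at -0.44 (adjusted p = 0.128) and POL30 at -0.23 (adjusted p = 0.135). How many of all genes reached that unadjusted level was not counted.

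With MMS, POL30 was lower than in wild type in both mutants, MCM3 was lower in C403A and RFA1 lower in C406A. POL30 and MCM3 were lower in untreated C403A too, at -0.34 and -0.52. The POL30 interactions, -0.08 in C403A and -0.18 in C406A, did not pass. In MMS-treated C403A 3 genes passed (6.82%, beside 13.6% of all genes), with 1 higher and 2 lower (2.27% and 4.55%, beside 7.47% and 6.09%). The higher one was DPB4 at 0.31 ± 0.08 (adjusted p = 0.0369), which was 0.04 with arrays scaled to hybridization controls and was lost without any 1 of the C403A MMS, C406A untreated and wild-type MMS arrays (0.27 to 0.35, adjusted p of up to 0.173). POL30 was lower at -0.42 and MCM3 at -0.36 (adjusted p = 0.00618 and 0.00929), the second lost without wild-type MMS array 1 (-0.35 at adjusted p = 0.0569) or C403A MMS array 1 (-0.32 at adjusted p = 0.0705). Without either of those arrays 1 gene passed in place of 3.

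In MMS-treated C406A 2 genes passed, beside 4.53% of all genes, with 0 higher and 2 lower (4.55%, beside 2.72% and 1.81%). POL30 was lower at -0.40 (adjusted p = 0.0163), lost without wild-type MMS array 1 (-0.39 at adjusted p = 0.0968) or C406A MMS array 2 (-0.34 at adjusted p = 0.126). RFA1 was lower at -0.39 (adjusted p = 0.0236), lost without wild-type MMS array 1 (-0.31 at adjusted p = 0.141) or C406A MMS array 2 (-0.32 at adjusted p = 0.17) and under median scaling (-0.31 at adjusted p = 0.0922). At an unadjusted p under 0.05, 13 of the 44 genes were lower and 1 was higher. The share of all genes at that unadjusted level was not counted, so no lowering particular to these genes can be read from it. The count of passing genes was 7 without C406A MMS array 1 and 0 without C406A MMS array 2 or wild-type MMS array 1. RFA2, POL12 and CDC9 stood at -0.30, -0.51 and -0.27 and did not pass (adjusted p = 0.0874, 0.0656 and 0.0996).

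**Figure D4:**
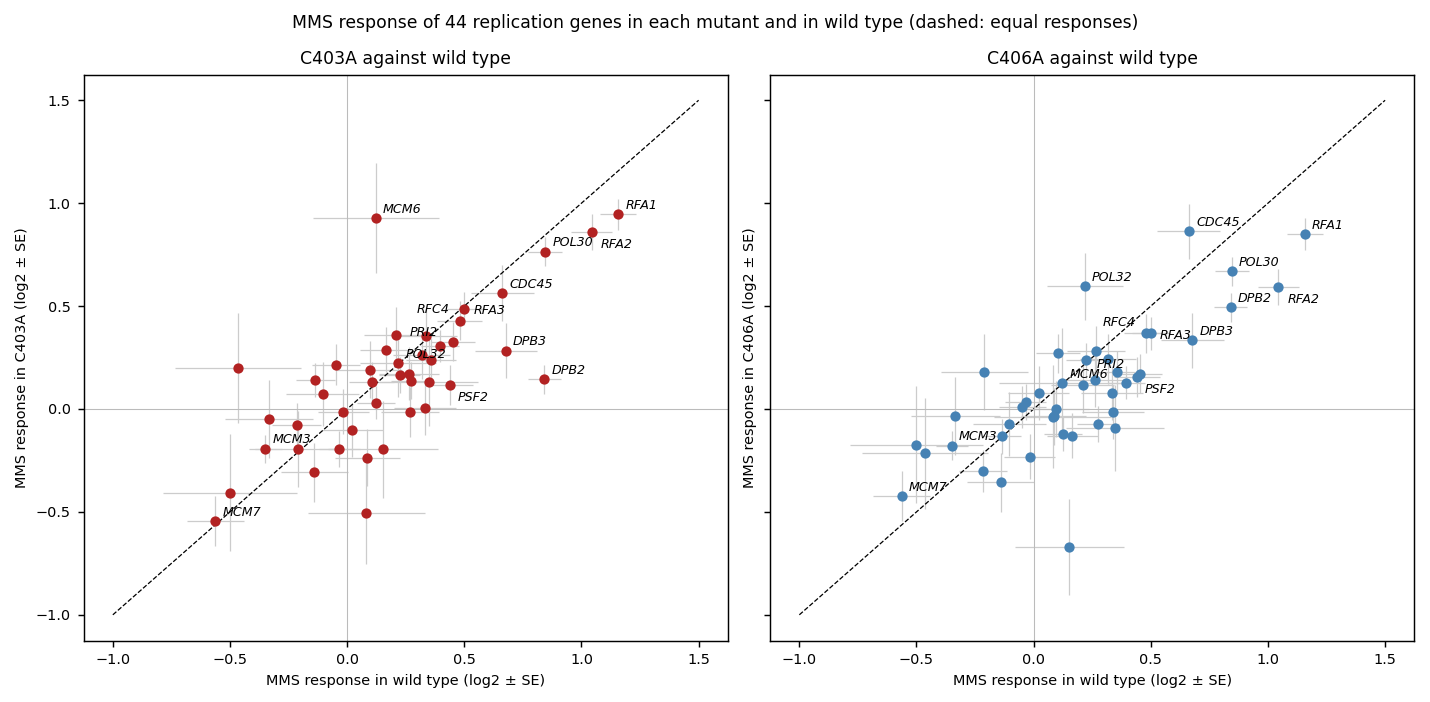
MMS response of each tested replication gene in C403A (left) and C406A (right) against its response in wild type, as log2 changes, with a line of equal response. RFA1, RFA2, POL30 and CDC45 lie at the upper right in both panels and MCM7 at the lower left. DPB2 lies well below the line in the C403A panel, at 0.14 against 0.84.

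The differences between MMS responses were tested as interactions. DPB2 was the 1 gene of 44 that passed, with a response in C403A smaller than in wild type by 0.70, an interaction of -0.70 ± 0.10 (adjusted p = 0.0218, 95% interval -0.92 to -0.47). Among all genes 0.317% were higher and 0.671% lower in that interaction. The call was lost without wild-type MMS array 1 (-0.70 at adjusted p = 0.0921), wild-type untreated array 1 (-0.71 at adjusted p = 0.0522) or 2 (-0.69 at adjusted p = 0.0515), C403A MMS array 1 (-0.72 at adjusted p = 0.0512) or 2 (-0.68 at adjusted p = 0.063), and without the 2 arrays of highest ribosomal RNA signal (-0.68 at adjusted p = 0.0871). The interaction was -0.64 as deposited and -0.72 with hybridization controls, and neither passed. These scalings differ by a factor per array, which shifts all genes above the floor nearly alike, so the similar size is no separate support.

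In C406A 0 of 44 interactions passed by limma, as 0% of all genes did. At an unadjusted p under 0.05, 6 were lower and 0 higher, and the share of all genes at that level was not counted. Intervals were wide: RFA2 stood at -0.45 (95% interval -0.73 to -0.17), DPB2 at -0.35 (-0.57 to -0.12) and RFA1 at -0.31 (-0.55 to -0.06), with adjusted p = 0.432, 0.446 and 0.511. For POL30 the interval was -0.31 to 0.15 in C403A and -0.41 to 0.05 in C406A, and for MCM7 -0.37 to 0.41 and -0.25 to 0.53. A missed threshold therefore leaves room for differences of this size. Without C406A MMS array 1, 1 interaction passed.

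Across the 44 genes the MMS response of C403A correlated with that of wild type at r = 0.73, that of C406A with wild type at 0.77 and those of the mutants with each other at 0.69. Over all 5369 genes the same correlations were 0.67, 0.77 and 0.66. Each response used its own untreated arrays, and genes on an array share that array's errors.

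Over the 12 arrays the log2 levels of replication genes followed the mean of RFA1, RFA2 and RFA3 to very different degrees. Closest among the others were RFC4, POL30 and PRI2, with Pearson correlations of 0.95, 0.92 and 0.90, followed by CDC45, MCM5 and DPB2 at 0.88 each. MCM7 lay at the other end at -0.92, and MCM10 and ORC1 stood at -0.70 and -0.64. Among 946 pairs of the 44 genes the median correlation was 0.08, with a range of -0.96 to 0.98. The genes outside the set most like the RPA mean were REH1, SIL1, RPT2, DDI1 and MET3, at 0.98 to 0.99. All of these points share the 6 groups, so the correlations describe mainly the contrast between MMS and untreated arrays.

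The set held 2 pairs of neighbouring genes. POL30 (YBR088C) lies next to RFC5 (YBR087W), whose changes were -0.10, 0.08 and 0.02 in C403A, C406A and wild type beside the rises of POL30. POL2 (YNL262W) lies next to ORC5 (YNL261W), and neither passed in a single strain.

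Related genes outside the set were described to place these values, and the counts of each list are to be read beside the shares of all genes, of which 8.42% were higher and 7.13% lower with MMS in C403A, 12.7% and 11.2% in C406A, and 19.1% and 13.9% in wild type. The deoxynucleotide supply genes, which make the precursors of DNA, gave 7 of 13 higher and 0 lower in C403A, 6 and 0 in C406A, and 7 and 3 in wild type. RNR2, a small subunit of ribonucleotide reductase, rose by 0.48 in C406A and 0.65 in wild type (adjusted p = 0.000277 and 3.59e-05). RNR1, the large subunit, rose by 0.77 in C403A (adjusted p = 0.00121). RNR3, a damage-inducible subunit at the floor on all untreated arrays, rose by at least 1.82 in C403A and 2.11 in wild type (adjusted p = 0.00041 and 6.06e-05). With MMS, RNR3 in C406A stood at -1.65 against wild type (adjusted p = 0.00266), although no C406A interaction passed. Genes were named by smallest p within a strain, so a strain not given for a gene may still hold a rise. The mean response of RNR2 over the strains was 0.50 (adjusted p = 1.78e-06). DUT1, which removes dUTP, fell by 0.44 in wild type (adjusted p = 0.000752). The median of the list was 0.28 in C403A, 0.31 in C406A and 0.29 in wild type.

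Genes for replication-coupled chromatin and cohesion gave 4 of 12 higher in C403A, 5 in C406A and 7 in wild type, with 0 lower by limma and 0 at an unadjusted p under 0.05. ASF1, a histone chaperone, rose by 0.67, 0.55 and 0.76 (adjusted p = 0.000548, 0.000815 and 8.44e-05), and MCD1, the cohesin kleisin, by 0.89, 0.76 and 0.95 (adjusted p = 0.0026, 0.00344 and 0.000602). The list's medians of 0.35, 0.23 and 0.46 were larger than those of the 44 replication genes.

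Fork and Okazaki fragment factors were split, with 2 of 14 higher and 2 lower in C403A, 1 and 1 in C406A, and 2 and 2 in wild type, and medians of 0.12, 0.01 and 0.02, the last of which was -0.07 with hybridization controls. TOF1, of the fork protection complex, rose by 0.33 in C406A and 0.49 in wild type (adjusted p = 0.0336 and 0.00386). RRM3, a helicase that helps forks past bound proteins, fell by 0.60, 0.45 and 0.63 in C403A, C406A and wild type (adjusted p = 0.0196, 0.0439 and 0.00746). Of 9 firing kinases and licensing regulators 2 were higher and 0 lower in C403A, 2 and 1 in C406A, and 3 and 2 in wild type. CDC28, the cyclin-dependent kinase, rose by 0.45, 0.40 and 0.36 (adjusted p = 0.0036, 0.00403 and 0.00429), and TAH11, which brings the MCM ring to origins, by 0.25, 0.31 and 0.27 (adjusted p = 0.0458, 0.0146 and 0.0195).

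**Figure D5:**
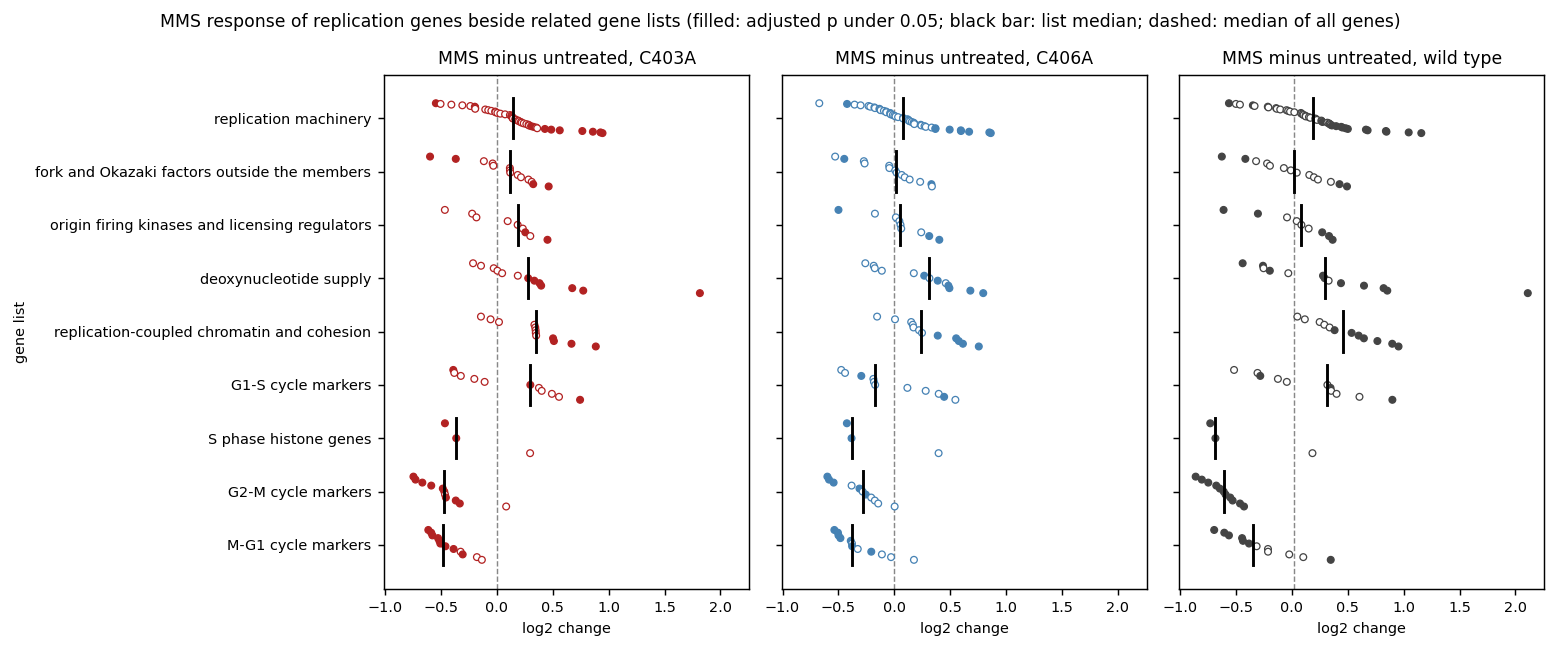
MMS response (log2 change) of each gene of the related lists and of the replication set in C403A, C406A and wild type, with filled points for adjusted p under 0.05, a bar at each list's median and a dashed line at the median of all genes. The point farthest to the right in C403A and wild type is RNR3, a damage-inducible subunit whose untreated arrays were all at the floor, so its change is at least that shown. G2-M markers lie below 0 in wild type, with a median of -0.61, while replication-coupled chromatin and cohesion genes have a median of 0.46 there.

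Markers of cycle stages moved with MMS and between strains, and their part in the replication results was not tested. The G2-M markers fell in 9 of 11 genes in C403A, 5 in C406A and 11 in wild type, whereas with the values as deposited 0 passed in each strain, and with hybridization controls 2, 0 and 7 were lower. Their summed level was 3934 to 4063 with MMS against 5340 to 5671 untreated in C403A, 3930 to 4087 against 4970 to 4987 in C406A, and 2892 to 3033 against 4483 to 4631 in wild type. Under MMS 6 of 11 were higher than in wild type in C403A and 6 in C406A, beside 7.47% and 2.72% of all genes. Without MMS 5 and 0 were higher, beside 9.16% and 1.83% of all genes. As deposited and with hybridization controls 0 were higher in each of these comparisons.

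M-G1 markers fell in 9 of 12 genes in C403A, 7 in C406A and 6 in wild type, where RME1 rose, while 0 fell in any strain as deposited and 6, 0 and 5 did with hybridization controls. Their summed level was 13169 to 13248 with MMS against 17490 to 17928 untreated in C403A, 16242 to 17105 against 19816 to 20167 in C406A, and 21221 to 21593 against 24085 to 24235 in wild type. Untreated, 8 were lower than in wild type in C403A and 4 in C406A (beside 4.97% and 0.875% of all genes), while RME1 was higher in C403A by 0.43 (adjusted p = 0.0103). With MMS 7 and 5 were lower (beside 6.09% and 1.81% of all genes). As deposited 2 and 0 were lower untreated and 4 and 1 with MMS, and with hybridization controls 9 and 3 untreated and 9 and 0 with MMS. G1-S markers were mixed, with 2, 1 and 2 of 11 higher and 1 lower in each strain. TOS4, transcribed at the start of the cycle, rose by 0.74, 0.45 and 0.90 (adjusted p = 0.00306, 0.021 and 0.000388), and CLN2, a G1 cyclin gene, fell by 0.39, 0.30 and 0.28 (adjusted p = 0.00936, 0.0212 and 0.019).

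Of 9 histone genes listed 3 were tested, and 2 of them, HTB1 and HTB2, fell in every strain, whereas as deposited 0 fell in C403A, 0 in C406A and 1 in wild type. HTB1 fell by 0.46, 0.42 and 0.68 in C403A, C406A and wild type (adjusted p = 0.0033, 0.00309 and 0.000151). The summed level of the 3 was 4867 to 5488 with MMS against 6624 to 6877 untreated in C403A, 5097 to 5695 against 6839 to 6989 in C406A, and 4856 to 4860 against 7335 to 7759 in wild type. Mating-type and ploidy markers gave 0 higher and 1 lower of 9 in C403A, 1 and 0 in C406A, and 0 and 1 in wild type.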

How the data were processed

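Signal intensity per probe set on a linear scale, 9335 per array, is what the authors deposited, per the file headers. The sources used here do not give how probes were summarized and scaled. Values below 0 made up 8.95%, and 0 columns of other samples were present. Array medians differed 1.69-fold, so arrays were quantile normalized over all probe sets but the 60 controls, values under the 20th percentile (34.5) were raised to it, and the result was put on the log2 scale. The 6504 probe sets that named 1 gene were used, and the 328 that named several and the 2503 that named none were not. The brightest probe set stood for a gene, and 287 of 5656 genes, above the floor on fewer than 2 arrays, were left out.

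Group means over the 12 arrays were fitted by lmFit and eBayes (with trend) of limma 3.58.1 under R 4.3.3, leaving 6 residual and 3.53 prior degrees of freedom, with 10 contrasts and Benjamini-Hochberg adjustment over all genes. No replicate numbers are labelled, so no block was used. Simulated data with 200 changed genes of 5369, in 5 draws, gave for the wild-type MMS response a recovery of 58.8%, 85.7% and 98.2% at log2 changes of 0.5, 1 and 2 with 5.50% of calls false. For untreated C403A against wild type the recovery was 58.2%, 90.1% and 98.8% with 4.08% false. For the C403A interaction it was 30.4%, 73.1% and 95.5% with 5.43% false. The simulated data had independent normal noise, no scaling step and far fewer changed genes than the 33% that passed in the wild-type response. These rates therefore describe that setting and not the measured arrays.

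The replication genes and the related lists were chosen with earlier results of these data known. Values on every array are given for genes that passed in a contrast at an absolute log2 change of at least 0.4. ORC1, SLD5, DPB4 and CDC9 were added after their values were seen. Up to 2 passing genes each way of smallest p were named from a list. Alternatives were other scalings, floors and filters, averaging a gene's probe sets, array weights, a fit of the compared groups alone and leaving out each array. A fit without the 2 arrays highest in ribosomal RNA signal was added after seeing the data, as was the count of list genes under the alternatives. Gene order came from a table of the R64 assembly. Promoter and protein sequences were not used here. Plots used matplotlib 3.10.9 (Python 3.11.15).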

Additional observations from a re-analysis of the deposited data

Results flagged for a closer look

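The MMS response of DPB2 differed between C403A and wild type by a test of the difference itself, at -0.70 on the log2 scale (adjusted p = 0.0218). The call did not hold as deposited, with hybridization controls or without some single arrays, as given above. DPB2 was higher in untreated C403A than in untreated wild type by 0.46. It stood at -0.24 between the strains with MMS, which did not pass. The arrays of the strains were apart in both conditions and in opposite directions.

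The other results were picked out because the arrays of the compared groups did not overlap and the direction differed between comparisons. None of them passed a test of the difference. DPB4 changed with MMS by 0.14 in C403A, -0.13 in C406A and -0.14 in wild type, with interactions of 0.28 (adjusted p = 0.288) in C403A and 0.002 (adjusted p = 1) in C406A. RFC1 changed by -0.12 in C406A and 0.12 in wild type, an interaction of -0.25 (adjusted p = 0.595).

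Between C406A and wild type the direction turned with MMS for 5 genes by this rule. How many of all genes meet the rule was not counted, so the 5 cannot be set against a background. The arrays of PRI2 with MMS were barely apart, at 371.6 and 368.7 in C406A and 372.9 and 428.6 in wild type. DPB2 stood at -0.21 with MMS and 0.14 untreated (interaction -0.35, adjusted p = 0.446). PRI2 stood at -0.11 with MMS and 0.17 untreated (interaction -0.28, adjusted p = 0.595), and RFA2 at -0.30 and 0.15 (interaction -0.45, adjusted p = 0.432). CTF4 stood at -0.24 with MMS and 0.11 untreated (interaction -0.35, adjusted p = 0.511). POL32 went the other way, at 0.19 with MMS and -0.19 untreated (interaction 0.38, adjusted p = 0.692).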

How the results depend on the processing

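No paired analysis was possible because the labels number no replicates. Of 804 values of single genes recomputed without 1 array, 687 kept their side of the threshold, 117 lost it and 0 reversed. Of 667 under the other settings, 559 kept it, 105 lost it and 3 reversed, all as deposited: MCM7 in C406A at 0.056, and the mean responses of MCM3 at 0.12 and ORC1 at 0.16.

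As deposited, 5 genes passed in the MMS response of C403A, 15 in C406A and 9 in wild type, and 0 in each of untreated C403A, MMS-treated C403A and MMS-treated C406A against wild type and in the C403A interaction. With arrays scaled to hybridization controls, 3 passed in the MMS response of C403A, 5 in wild type, 11 in the mean response, 3 in untreated C403A, all lower, 0 in MMS-treated C406A and 0 in the C403A interaction. Median scaling left 1 in MMS-treated C406A. Fitting the compared groups alone left 3 in the MMS response of C403A, 0 in untreated C403A, 1 in MMS-treated C403A, 0 in MMS-treated C406A and 0 in the C403A interaction. With no floor, no filter or array weights, 1 passed in untreated C406A, and with array weights 5 in MMS-treated C403A. Without the 2 arrays of highest ribosomal RNA signal, 1 passed in untreated C403A and 0 in the C403A interaction. Each other setting left these counts within 1.5 times the main count. The cause of these shifts was not tested, beyond the fewer arrays behind a fit of the compared groups alone.

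Without 1 array the counts ran between 4 and 10 in the MMS response of C403A, 5 and 11 in C406A, 13 and 17 in wild type and 19 and 23 in the mean response. For the mutants against wild type they ran between 4 and 5 in untreated C403A, 0 and 1 in untreated C406A, 1 and 4 in MMS-treated C403A and 0 and 7 in MMS-treated C406A. For the interactions they ran between 0 and 1 in C403A and 0 and 1 in C406A. Another scaling moved the share of all passing genes that were higher by over 10 percentage points. In untreated C403A it was 64.8% under the main scaling, 72.1% with median scaling and 10.3% with hybridization controls. In untreated C406A it was 67.6%, 78.5% and 11.8%, and 46.7% as deposited. In MMS-treated C403A it was 55.1%, 64.6% and 4.26%, and in MMS-treated C406A 60.1%, 74.3% and 76.1%. Signal near the floor limits ORC6, MCM10 and SLD2.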
